A study of Mus musculus with 12 samples.

Results

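AP-1 and the early response factors were followed in 12 RNA sequencing libraries of mouse bone marrow-derived macrophages (BMDMs), cultured from progenitor cells of the marrow. The 10 genes were *Fos*, *Fosb*, *Fosl2*, *Jun*, *Junb*, *Jund*, *Egr1*, *Egr2*, *Atf3* and *Ier3*. They were found by gene symbol among the 18376 genes of the deposited table, and all 10 passed the filter on low values, which kept 14318 genes. The cells came from the marrow of wild-type adult C57BL6/J mice and were kept with 50 ng/ml M-CSF, the growth factor of macrophages, in every group. In addition they received nothing (CTRL), 50 ng/ml recombinant activin A (Act), activin A together with 250 ng/ml of the follistatin form FST288 (Act + FST), or 250 ng/ml FST288 (FST), for 6 days. Each group had 3 libraries. The labels do not say whether these came from separate cultures or mice, so p-values measure the spread between the libraries, which may be technical.

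AP-1 is a pair of basic leucine zipper (bZIP) proteins, usually 1 of the FOS family (*Fos*, *Fosb*, *Fosl2*) with 1 of the JUN family (*Jun*, *Junb*, *Jund*). JUN proteins can also pair with each other or with ATF proteins such as *Atf3*, and the partners set which DNA sites are bound and whether the target gene is activated or repressed. Most of these genes are immediate early genes: MAP kinase signals switch them on within minutes without new protein synthesis, and their mRNAs are short-lived. *Egr1* and *Egr2* encode zinc finger factors of the same early response, and *Ier3* encodes a small early response protein linked to cell survival. In macrophages, AP-1 acts beside lineage factors at many enhancers. Activin A is a TGF-β family ligand that signals through SMAD2 and SMAD3, and follistatin binds it and keeps it from its receptors. RNA taken after 6 days shows the level after long exposure, not the first hour of a response.

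The authors had multiplied the gene counts of each library by a common factor and rounded them, and these values are called normalized counts here. The factors and the depth are unknown, and library totals lay between 5643708 and 5955400. Among 18359 genes with an exonic length, the highest mean was 0.883 normalized counts per exonic base. Whether reads that start at the same base were counted once is not stated and was not tested. If they were, levels, ratios and fold changes of the higher genes would be compressed. Groups were compared with limma on log2(normalized count + 1) in 1 model of all 12 libraries. Adjusted p-values are Benjamini-Hochberg values from limma over the 14318 genes, and log2 fold changes are on this scale with their standard errors (SE). A gene passed the test at an adjusted p of at most 0.05, and was called a DEG when its fold change was also at least 2. The macrophage identity of the cells was checked with 8 marker genes. All 8 were present, and their summed normalized count lay between 11023 and 12284 in the 12 libraries, with overlapping groups. The libraries numbered 1 stood apart in 7 detected fibroblast and stromal markers of a list of 8, of which 4 had a mean of at least 5. The summed normalized count of these markers was 81, 287, 122 and 141 in the libraries numbered 1 of CTRL, Act, Act + FST and FST, and 36, 68, 31 and 25 in those numbered 2 and 26, 59, 27 and 28 in those numbered 3. The sum was therefore also highest in Act within every replicate number. Means over the 12 libraries were 27.3 normalized counts for *Pdgfrb*, 22.8 for *Col1a2* and 16.8 for *Col1a1*, which reached 51, 109 and 83 in single libraries, 6.75 for *Postn*, and 2.08, 1.33 and 0.50 for *Dcn*, *Col3a1* and *Pdgfra*. Of 5 dendritic cell markers, all in the table, the sum was highest in Act within every number too, at 117, 187 and 149 in Act, 92, 165 and 70 in CTRL, 96, 143 and 82 in Act + FST, and 77, 118 and 78 in FST. *Siglech* had the largest mean of the dendritic list, at 59.8 normalized counts (34 to 97). Both sums were thus higher in Act, beside the changes described here. The paper reported by qRT-PCR that activin A raised *Pdgfrb* in BMDMs. Whether the sums came from other cells or from these genes in macrophages, and their part in the results, was not tested. Libraries with the same number deviated from their group means together, so a fit with the replicate number as a block is given where it changed a call.

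In untreated macrophages these genes were not silent. Per kilobase of exon, the CTRL level was highest for *Atf3*, at 360 ± 27.8 (SD, n = 3) normalized counts per kb. *Ier3* at 266 ± 14.4, *Junb* at 265 ± 8.35, *Jund* at 265 ± 8.50 and *Jun* at 253 ± 13.7 followed and did not differ beyond their spread. *Fos* was next at 185 ± 32.3. *Egr1* at 77.7 ± 7.26, *Egr2* at 74.6 ± 15.2 and *Fosl2* at 67.8 ± 5.74 were lower and not separated from each other. *Fosb* was lowest, at 8.01 ± 0.277 normalized counts per kb. Over all 12 libraries, 9 of the 10 genes lay above the level of the median tested gene, which was 61.9 normalized counts per kb, and *Fosb* lay below it at 5.38. Levels of *Jun* and *Jund* are less certain, because exons on the opposite strand overlap 7.28% of the exonic bases of *Jun* (*Junos*) and 52.6% of those of *Jund* (*Gm11175*). The library kit was stranded and reads on several genes were excluded, but the strand setting of the counting is not given in the sources used here. Counting without strand would leave out the reads in these overlaps. *Junos* had 27 to 62 normalized counts and *Gm11175* had 16 to 36.

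Activin A moved the AP-1 genes in both directions. The 10 genes were chosen with earlier results of these data known, so shares beside them are a description. Against CTRL, 5 of the 10 genes passed the test, where 20.2% of all genes did. Of these 5, 3 rose (*Fosl2*, *Junb*, *Ier3*), where 10.3% of all genes rose, and 2 fell (*Fosb*, *Jun*), where 9.97% fell. The only DEG among them was *Fosb* (5.66% of all genes). With the replicate block 8 of the 10 passed (31.5% of all genes), with *Fos* higher and *Egr2* and *Atf3* lower besides these 5. The 3 Act libraries did not overlap the 3 CTRL libraries for 6 genes, namely *Fos* and the 5 just named, where 35.7% of all genes did not overlap. The median log2 fold change of the 10 genes was −0.06, and that of all genes tested was 0.00. In bulk libraries, fewer cells of a kind and less RNA per cell cannot be told apart.

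**Figure D1:**
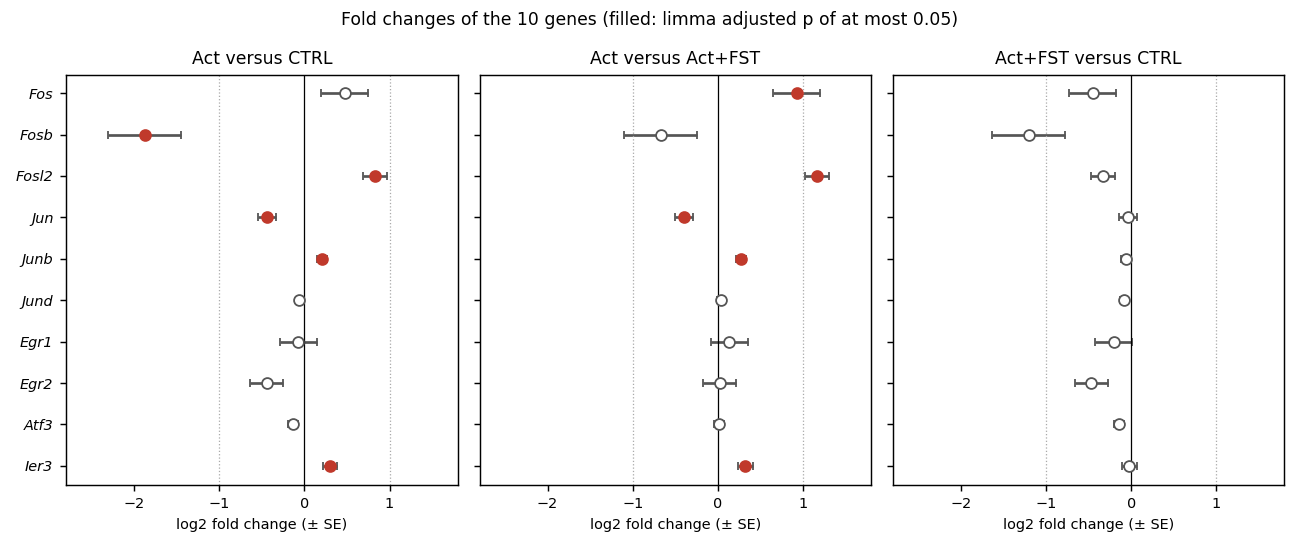
Log2 fold changes of the 10 genes on the log2(normalized count + 1) scale, with bars of 1 SE, for Act versus CTRL, Act versus Act + FST and Act + FST versus CTRL (filled points, limma adjusted p of at most 0.05; dotted lines, a fold change of 2). *Fosl2*, *Junb* and *Ier3* were higher and *Fosb* and *Jun* lower in Act than in CTRL, with values of 0.82, 0.21, 0.30, −1.87 and −0.44.

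Within the FOS family the 3 genes differed in how they stood under activin A. *Fosl2* encodes FRA2, which lacks the strong transactivation domain of FOS and persists longer, and it had the largest rise among the 10 genes. *Fosb*, whose protein is a close relative of FOS, had the largest fall. The promoters of these 2 genes are printed because they carried the largest change in each direction. They are RefSeq windows on GRCm38.p6 from 250 bases before to 50 bases after the transcript start. That of *Fosl2* is chr5:32136222-32136521 on the plus strand, and that of *Fosb* is chr7:19309996-19310295 on the minus strand. The deposited position of *Fosl2* starts at 32135801, so its whole window lies within the gene as deposited. Bases before that deposited start were not searched. Capitals mark the EGR site GCGGGGGCG, at −79 to −71 in *Fosl2* and −50 to −42 in *Fosb*, counted from the start base as 0.
Fosl2: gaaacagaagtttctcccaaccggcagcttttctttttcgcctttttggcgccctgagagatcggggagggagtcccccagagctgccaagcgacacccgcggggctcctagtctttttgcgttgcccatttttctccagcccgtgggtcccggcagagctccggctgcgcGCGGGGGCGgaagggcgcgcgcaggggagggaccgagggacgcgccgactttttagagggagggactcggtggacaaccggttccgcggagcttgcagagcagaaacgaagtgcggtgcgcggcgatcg
Fosb: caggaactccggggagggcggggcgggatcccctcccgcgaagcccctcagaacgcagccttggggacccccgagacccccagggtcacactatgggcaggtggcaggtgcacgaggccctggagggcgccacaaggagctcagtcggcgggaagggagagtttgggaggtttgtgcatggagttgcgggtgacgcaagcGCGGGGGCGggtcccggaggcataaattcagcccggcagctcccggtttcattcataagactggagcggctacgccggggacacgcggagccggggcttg
The EGR site stood in 2.91% of 32851 windows of this kind, searched on both strands. Windows were found for 9 of the 10 genes, all but *Egr1*. Other motifs searched on both strands were the AP-1 site TGACTCA, in 5.20% of all windows, the CRE TGACGTCA in 1.79%, the CArG box in 1.63%, the SMAD box GTCTAGAC in 0.213% and the TATA box TATAAA in 13.6%. Of these, TATAAA stood in the windows of *Fos* (−33 to −28) and *Junb* (0 to 5), and the CArG box in 4 of 5 windows of *Egr2*. Some of these *Egr2* windows overlap and hold the same CArG box, so the 4 are not separate sites. TGACTCA, TGACGTCA and GTCTAGAC had no match in the windows of these 9 genes.

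*Fosl2* (ENSMUSG00000029135; chromosome 5, 32135801 to 32157842, plus strand) had normalized counts of 719, 614 and 635 in CTRL, and Act libraries held 1167, 1180 and 1133. The 3 Act values lay close together and far above every other library. Act + FST libraries held 646, 525 and 410 and FST libraries 704, 536 and 533, so that the groups with FST288 overlapped CTRL. The mean rose from 656 ± 55.6 to 1160 ± 24.3 (SD, n = 3), a log2 fold change of 0.82 ± 0.14 (SE; limma adjusted p = 0.0013). It was also higher in Act than in Act + FST, by 1.16 ± 0.14 on the log2 scale (adjusted p = 1.1e-04), which made it the only DEG of that comparison among the 10 genes. The rise against CTRL passed without each of the 6 libraries in turn, with adjusted p up to 0.0076.

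*Fos* (ENSMUSG00000021250; chromosome 12, 85473890 to 85477273, plus strand) encodes the prototype partner of JUN. CTRL libraries held 512, 436 and 360 normalized counts of it, and Act libraries held 628, 616 and 558. The values were 454, 372 and 185 with activin A and FST288, and 513, 420 and 289 with FST288 alone. The Act libraries were the 3 highest of all 12, and the other 9 were widely spread. Means were 601 ± 37.4 in Act and 436 ± 76.0 in CTRL, a log2 difference of 0.47 ± 0.28 that did not pass (adjusted p = 0.28). With the replicate block it passed (adjusted p = 0.021), and with only the 6 libraries of these groups it also did (0.022). Against Act + FST, *Fos* was higher in Act by 0.93 ± 0.28 on the log2 scale (adjusted p = 0.032). This call was lost in 4 of the 6 fits that left out 1 library. Without Act replicate 1 or 2 the difference itself changed little, at 0.89 and 0.91. Without Act replicate 1, 2 or 3 the adjusted p was 0.085, 0.085 and 0.064, and without Act + FST replicate 3, the library with 185 counts, the difference was 0.54 (adjusted p = 0.092). It was past the threshold with the replicate block (adjusted p = 1.9e-04).

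*Fosb* (ENSMUSG00000003545; chromosome 7, 19302696 to 19310051, minus strand) had normalized counts of 48, 51 and 51 in CTRL, close to 47, 52 and 39 in FST. In Act it had 22, 8 and 12, below every CTRL and FST library. In Act + FST it had 29, 35 and 9, so that replicates 1 and 2 lay between the groups and replicate 3 lay with Act. The mean fell from 50.0 ± 1.73 to 14.0 ± 7.21, a log2 fold change of −1.87 ± 0.43 (adjusted p = 0.0082), and this passed without each of the 6 libraries in turn. At such low counts the scale understates the change. Act and Act + FST did not differ by the test (−0.67 ± 0.43, adjusted p = 0.32). Without Act + FST replicate 3 the same difference was −1.24 with an adjusted p of 0.020.

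**Figure D2:**
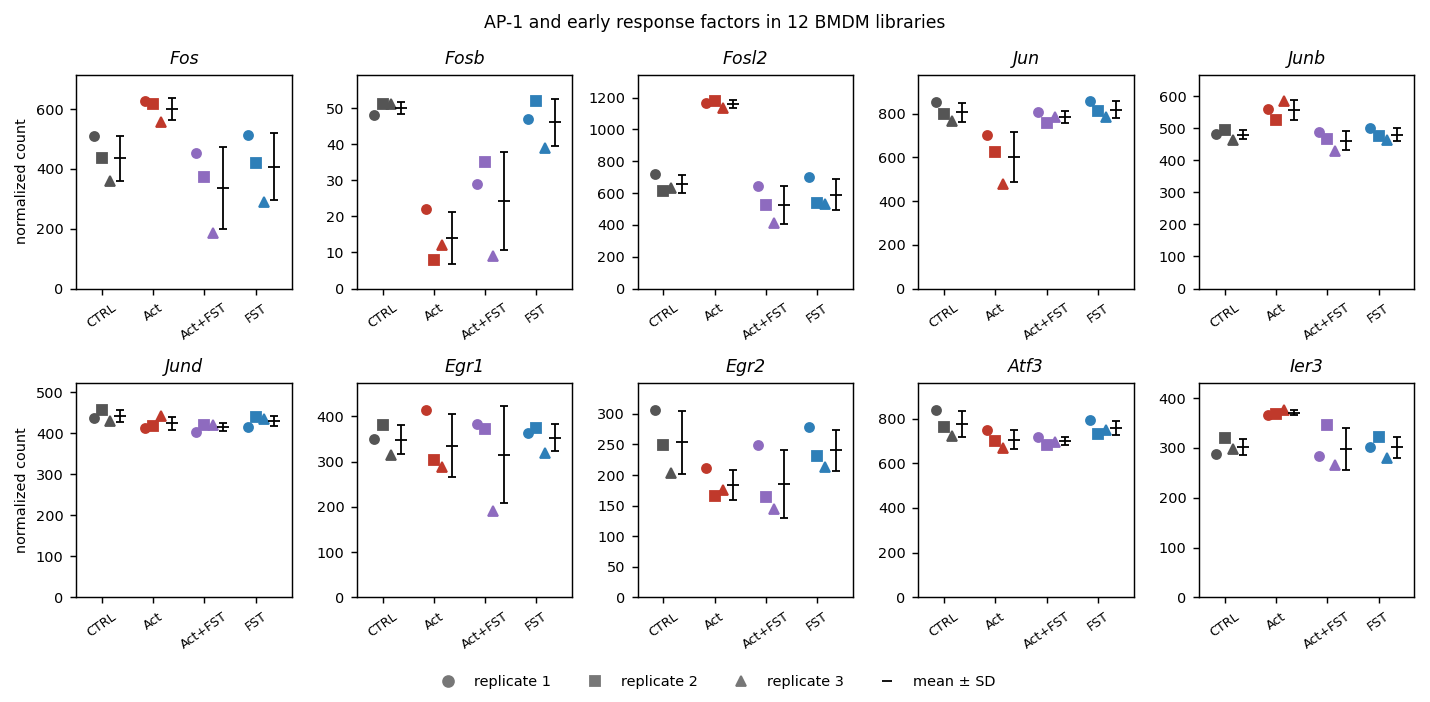
Normalized count of each of the 10 genes in every library, by group, with the symbol giving the replicate number and bars giving the group mean ± SD. *Fosl2* values were 1133 to 1180 in Act and 410 to 719 in the other groups, and *Fosb* values were 8 to 22 in Act and 39 to 52 in CTRL and FST.

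The JUN family split as well. *Jun* (ENSMUSG00000052684; chromosome 4, 95049034 to 95052222, minus strand), which encodes the strongest activator of the family, had normalized counts of 853, 801 and 766 in CTRL, while Act libraries held 704, 623 and 478. Values were 810, 756 and 787 with activin A and FST288, and 859, 814 and 783 with FST288 alone. Every Act library lay below all 9 others, and those 9 lay within a narrow band. The mean fell from 807 ± 43.8 to 602 ± 115, a log2 fold change of −0.44 ± 0.11 (adjusted p = 0.011), which passed without each of the 6 libraries. Against Act + FST the difference was −0.40 ± 0.11 (adjusted p = 0.017). Without Act replicate 3, the library with 478 counts, these differences were smaller, at −0.28 and −0.24, and still passed. With only the 6 libraries of Act and Act + FST in the model the second did not pass (adjusted p = 0.056).

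*Junb* (ENSMUSG00000052837; chromosome 8, 84976910 to 84978718, minus strand) encodes a weaker activator that can restrain JUN. CTRL libraries held 482, 494 and 464 normalized counts, Act libraries 558, 525 and 585, Act + FST libraries 488, 466 and 430, and FST libraries 501, 476 and 463. Act was above all other libraries, by a small margin. The rise against CTRL was 0.21 ± 0.06 on the log2 scale (adjusted p = 0.020). It was lost without CTRL replicate 3 (adjusted p = 0.081), Act replicate 1 (0.057) or Act replicate 3 (0.085). The difference from Act + FST was 0.27 ± 0.06 (adjusted p = 0.0047) and passed without each of its 6 libraries.

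*Jund* (ENSMUSG00000071076; chromosome 8, 70698949 to 70700616, plus strand) encodes the JUN protein that is made more steadily and responds least to stimuli. Its values lay between 404 and 458 normalized counts in all 12 libraries, with group means from 415 ± 9.54 in Act + FST to 442 ± 14.2 in CTRL. The log2 difference of Act from CTRL was −0.06 ± 0.05 (adjusted p = 0.43) and that of Act from Act + FST was 0.03 ± 0.05 (adjusted p = 0.68).

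The ratio of *Jun* to *Junb*, each per kilobase of exon, was 0.953 ± 0.0445 (SD, n = 3) in CTRL, 0.967 ± 0.0629 in Act + FST and 0.967 ± 0.00705 in FST, so that both genes stood at about the same level. In Act it was 0.617 ± 0.135, with 0.716, 0.673 and 0.464 in the 3 libraries, below all 9 others. The ratio of *Fosl2* to *Fos* per kilobase lay between 0.452 and 0.493 in Act and between 0.310 and 0.538 in the other 3 groups, which overlapped it. These ratios were chosen after the values were seen and are given without a test.

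**Figure D3:**
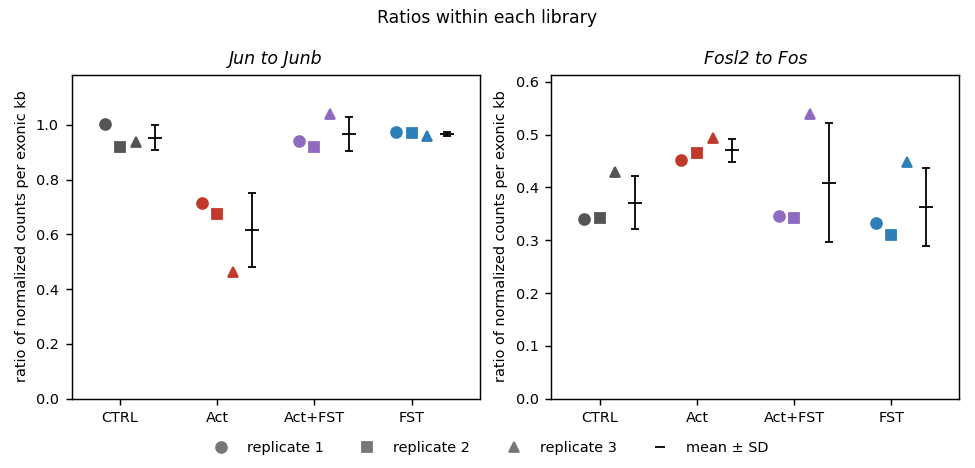
Ratios of normalized counts per kilobase of exon in each library, by group, for *Jun* to *Junb* and *Fosl2* to *Fos*, with bars giving the mean ± SD. The *Jun* to *Junb* ratio was 0.464 to 0.716 in Act and 0.920 to 1.04 in the other groups, and the groups overlapped for *Fosl2* to *Fos*.

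The EGR genes did not follow this pattern. *Egr1* (ENSMUSG00000038418; chromosome 18, 34859823 to 34864984, plus strand) is induced by growth factors and mechanical stimuli in many cells. CTRL libraries held 350, 380 and 315 normalized counts, Act libraries 415, 303 and 288, Act + FST libraries 384, 371 and 191, and FST libraries 364, 375 and 320. All 4 groups overlapped. The log2 difference of Act from CTRL was −0.07 ± 0.22 (adjusted p = 0.87). With such an error, changes larger than 1 SE could be missed too, as the −0.44 ± 0.19 of *Egr2* did not pass. *Egr2* (ENSMUSG00000037868; chromosome 10, 67535475 to 67542188, plus strand), a marker of alternatively activated macrophages, had normalized counts of 307, 249 and 204 in CTRL, and Act libraries held 212, 166 and 175. Act + FST libraries held 249, 164 and 144, and FST libraries 278, 231 and 213. Paired by replicate number, Act was lower than CTRL in 3 of 3 pairs, while the groups overlapped. The difference was −0.44 ± 0.19 on the log2 scale, which did not pass (adjusted p = 0.13) and passed with the replicate block (adjusted p = 0.0013). Act and Act + FST had means of 184 ± 24.4 and 186 ± 55.8 normalized counts of *Egr2*, with a log2 difference of 0.02 ± 0.19 (adjusted p = 0.96).

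*Atf3* (ENSMUSG00000026628; chromosome 1, 191170296 to 191218039, minus strand) is a stress-induced bZIP factor that represses inflammatory genes in macrophages. CTRL libraries had normalized counts of 840, 763 and 722, Act libraries of 750, 700 and 668, Act + FST libraries of 719, 683 and 694, and FST libraries of 792, 732 and 750. Act was below CTRL in 3 of 3 pairs, with overlapping groups and a log2 difference of −0.13 ± 0.06 that did not pass (adjusted p = 0.14). It passed with the replicate block (adjusted p = 0.015) and with quantile normalization (0.025). *Ier3* (ENSMUSG00000003541; chromosome 17, 35821684 to 35822923, plus strand) had normalized counts of 287, 319 and 298 in CTRL libraries, 367, 369 and 377 in Act libraries, 284, 346 and 265 in Act + FST libraries, and 302, 321 and 280 in FST libraries. The Act values were nearly equal and above all others. The rise was 0.30 ± 0.09 on the log2 scale (adjusted p = 0.028). It was lost without any 1 of these libraries except CTRL replicate 2, with an adjusted p between 0.062 and 0.083. The log2 difference stayed between 0.27 and 0.34 in these fits. The difference from Act + FST was 0.32 ± 0.09 (adjusted p = 0.018), and it was lost without Act replicate 2 (adjusted p = 0.05008), Act replicate 3 (0.060), Act + FST replicate 1 (0.055) or Act + FST replicate 3 (0.077).

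A fit with only the libraries numbered 2 and 3 in each group was an alternative chosen after the data were seen. In Act versus CTRL it called 2344 of all 14318 genes, and 4 of the 10. These were *Fosl2* (0.89), *Fosb* (−2.26), *Jun* (−0.52) and *Egr2* (−0.40, adjusted p = 0.043), while *Junb* (adjusted p = 0.068) and *Ier3* (0.16) did not pass. In Act versus Act + FST it called 2782 of all 14318 genes, and 4 of the 10. The 4 were *Fos* (1.16), *Fosl2* (1.32), *Jun* (−0.50) and *Junb* (0.31), and *Ier3* did not pass (adjusted p = 0.11).

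The comparison with Act + FST asks how Act differed from cells given FST288 with activin A. Its values also hold any difference of Act + FST from CTRL. On the log2 scale that was −0.45 ± 0.28 for *Fos* and −0.34 ± 0.14 for *Fosl2*, and neither passed. In Act versus Act + FST, 5 of the 10 genes passed (21.3% of all genes), with 4 higher in Act (*Fos*, *Fosl2*, *Junb*, *Ier3*; 11.1% of all genes) and 1 lower (*Jun*; 10.2%). Of the 10, 1 was a DEG (5.83% of all genes), and the libraries did not overlap for the same 5 genes (34.1% of all genes). The block called 5 as well (32.6% of all genes). In Act versus FST 5 of 10 passed (23.5% of all genes), namely *Fosl2* (0.98), *Junb* (0.21), *Ier3* (0.30), *Jun* (−0.46, and −0.30 without Act replicate 3) and *Fosb* (−1.75), and 8 of 10 with the block (34.3% of all genes). Leaving out 1 library at a time in Act versus FST, *Junb* passed in 3 of 6 fits (adjusted p up to 0.076) and *Ier3* in 1 of 6 (up to 0.10). *Fosl2*, *Jun* and *Fosb* passed in 6 of 6. Act versus CTRL, Act versus Act + FST and Act versus FST share the Act libraries.

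Act + FST against CTRL called none of the 10 genes by limma, as of all genes (0.0%). At an unadjusted p under 0.05 it held 4 of the 10 and 655 of all genes. The 4 were *Fosb* (−1.21 ± 0.43 on the log2 scale), *Egr2* (−0.47 ± 0.19), *Atf3* (−0.15 ± 0.06) and *Fosl2* (−0.34 ± 0.14), with unadjusted p of 0.016, 0.033, 0.029 and 0.034. Every one was lower with activin A and FST288. Their sizes rested on single libraries: without Act + FST replicate 3 *Fosb* was at −0.63, *Egr2* at −0.30 and *Fosl2* at −0.17, and without CTRL replicate 1 *Atf3* was at −0.087. The block called 1 of the 10, *Egr2* (adjusted p = 0.043), and 0.559% of all genes. Libraries did not overlap for *Fosb*, *Jund* and *Atf3*, all lower in Act + FST, 3 of 10 genes against 6.68% of all genes. FST versus CTRL called 0 of the 10 (0.0% of all genes), with 0 of them and 299 of all genes at an unadjusted p under 0.05. The log2 differences lay between −0.16 (*Fosl2*) and 0.02. Act + FST versus FST also called 0 (0.0% of all genes), with 1 of the 10, *Fosb* (−1.08), and 502 of all genes at an unadjusted p under 0.05.

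Whether the effect of activin A depended on FST288 was tested as an interaction, the difference of Act from CTRL minus that of Act + FST from FST. *Fosl2* was the only one of the 10 genes to pass (6.74% of all genes), at 1.00 ± 0.20 on the log2 scale (adjusted p = 0.010), and it passed without each of the 12 libraries in turn, with values between 0.83 and 1.16. With the replicate block 5 of 10 passed (16.3% of all genes). The added 4 were *Fos* (0.80, blocked adjusted p = 0.014), *Jun* (−0.38, 0.022), *Junb* (0.27, 0.020) and *Ier3* (0.32, 0.029). Without the block their adjusted p was 0.29, 0.17, 0.068 and 0.16. Leaving out 1 library at a time, *Fos* passed in 0 of 12 fits and each of the other 3 in 1 of 12, *Jun* without Act replicate 1 (0.041), *Junb* without Act + FST replicate 1 (0.038) and *Ier3* without Act + FST replicate 2 (0.019). The value of *Fos* was 0.42 without Act + FST replicate 3, and that of *Jun* was −0.22 without Act replicate 3. *Fosb* (−0.80 ± 0.61), *Egr2* (−0.04 ± 0.28), *Atf3* (−0.02 ± 0.08), *Egr1* (0.16 ± 0.31) and *Jund* (−0.01 ± 0.06) did not pass in either fit.

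Several of these genes varied with the replicate number across all groups. *Fos*, *Jun*, *Egr2* and *Atf3* were highest in the library numbered 1 in 4 of 4 groups, and *Fos* and *Egr1* were lowest in the library numbered 3 in 4 of 4. Over the 4 groups the mean normalized count of *Fos* was 527, 461 and 348 in the libraries numbered 1, 2 and 3, and that of *Egr1* was 378, 357 and 279. For comparison, the group means of *Fos* ran from 337 to 601. The libraries numbered 1 also had the highest sums of fibroblast and stromal markers, and the part of these in the pattern was not tested. Within the replicate numbers *Fos* in Act exceeded CTRL in 3 of 3 pairs.

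**Figure D4:**
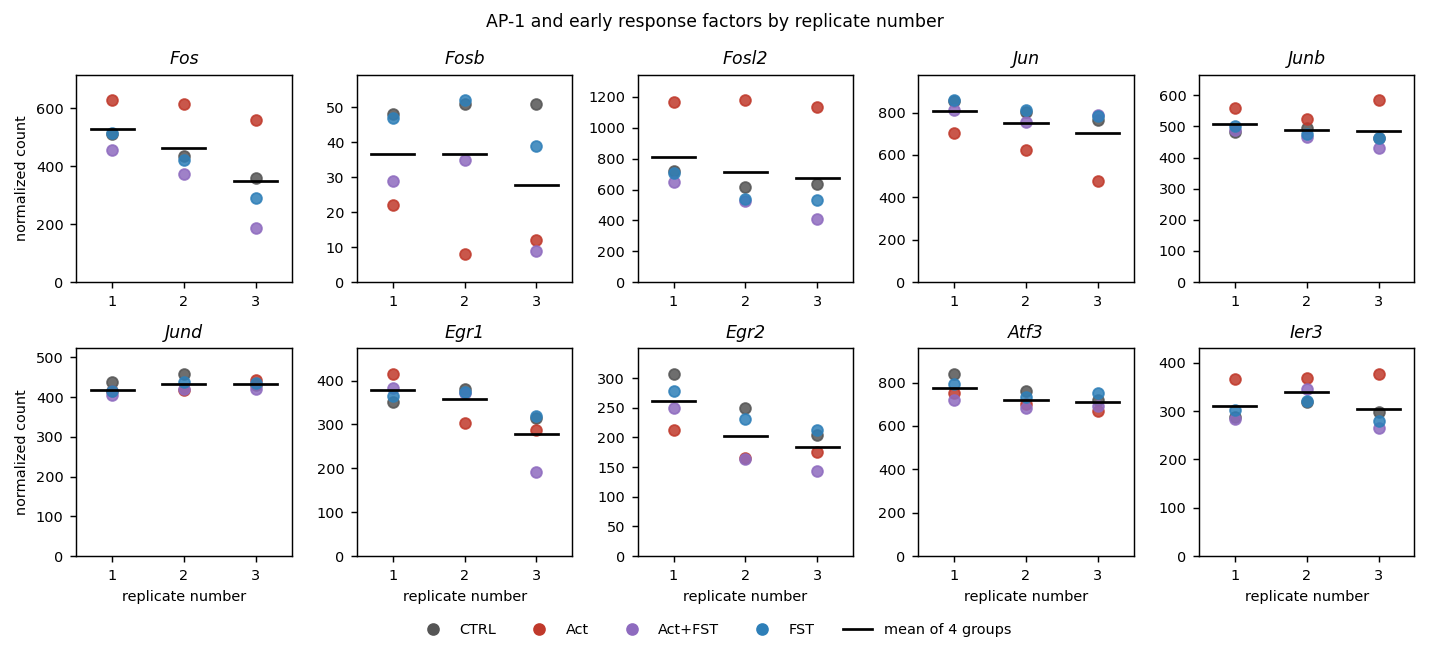
Normalized count of each of the 10 genes (vertical axis) by replicate number, with 1 point per library coloured by group and a bar at the mean of the 4 groups. Each group's *Fos* point was highest at the number 1 and lowest at 3, with means of 527 and 348.

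The genes most like a member in pattern were sought by Pearson's r of log2(normalized count + 1) over the 12 libraries, among 10625 other genes with a mean of at least 50. For *Fosl2* they were *Maml3* (r = 0.990), *Dtx4* (0.986) and *Notch1* (0.983), and for *Fos* they were *Thbs1* (0.973), *Angptl4* (0.967) and *Adgre4* (0.967). For *Jun* they were *Akap17b* (0.974), *Rgsl1* (0.969) and *Emp1* (0.966). *Egr1* had no gene as close, with *Hsdl2* (0.881), *Sardh* (0.876) and *St7l* (0.868) at the top. The libraries share their treatment groups and replicate numbers, and r is given as a description. Mean normalized counts of *Notch1* were 2305 in Act and 1511, 1390 and 1439 in CTRL, Act + FST and FST, and those of *Rgsl1* were 18.3 in Act and 70.0, 71.7 and 78.3 in the same 3 groups.

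Other genes of the pathway were taken from lists, which were chosen with earlier results of these data known. Their counts in Act versus CTRL stand beside the 10.3% of all genes that rose and the 9.97% that fell. The counts are a description, not a test of the lists. Of 27 further bZIP factors 25 were tested, and in Act versus CTRL 10 rose and 3 fell, with a median log2 fold change of 0.20 against 0.00 over all genes. *Bach2*, a bZIP repressor of lymphoid and myeloid cells that competes for related sites, rose from 84.3 ± 8.08 to 277 ± 21.0 normalized counts (log2 fold change 1.70 ± 0.16, adjusted p = 1.4e-05), and was 63.0 ± 12.5 in Act + FST. *Nfil3* rose by 0.52 and *Jdp2*, whose protein pairs with JUN and represses AP-1 sites, by 0.45, and *Atf5* fell by 0.51 on the log2 scale. The small MAF factor *Maff* rose by 1.15 (adjusted p = 0.012; 0.054 without CTRL replicate 3). Of 35 other immediate early genes 31 were tested, and 10 rose and 7 fell, with a median of 0.02. The kinase genes *Plk3* (1.93 ± 0.16) and *Sgk1* (1.06 ± 0.10) and *Csrnp1* (0.83 ± 0.12) rose. The Krüppel-like factors *Klf4* (−1.22 ± 0.10) and *Klf2* (−1.04 ± 0.16) fell, as did *Egr3* (−0.87 ± 0.26) and *Myc* (−0.86 ± 0.24). *Egr3* passed only without Act replicate 1, with adjusted p between 0.071 and 0.14 without each other library, and *Myc* was lost without CTRL replicate 1 or 2 or Act replicate 2 or 3 (0.055 to 0.096). *Nr4a2* was 0.56 higher against CTRL, which did not pass (adjusted p = 0.20), and 1.08 higher in Act than in Act + FST (adjusted p = 0.017).

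Of 21 MAP kinases and upstream transcription factors, all tested, 4 rose and 1 fell, none of them a DEG, with a median of 0.05. These 5 are close to the share of all genes that passed (20.2%). *Rps6ka5*, which encodes the kinase MSK1 that acts on chromatin at early genes, rose by 0.41. Of the ternary complex factors that bind with SRF, *Elk3* rose by 0.31 and *Elk1* fell by 0.32. Of 17 MAP kinase phosphatase, Sprouty and NAB genes 16 were tested, and 1 rose and 1 fell, with a median of −0.04. These were *Dusp6* (0.60), which encodes a phosphatase of ERK, and *Dusp4* (−0.92), whose fall was lost without CTRL replicate 1 (adjusted p = 0.060) or Act replicate 2 (0.067). With the block 4 rose and 3 fell, where 31.5% of all genes passed in either direction. Of 14 genes with AP-1 sites known from textbooks 12 were tested, and 2 rose and 5 fell, with a median of −0.29. *Ptgs2*, the inducible cyclooxygenase, rose from 7.67 ± 1.53 to 26.3 ± 6.03 normalized counts (log2 1.65 ± 0.38) and *Tnf* rose by 0.61. *Ccl2* (−2.06), *Mmp12* (−1.36), *Timp1* (−1.34), *Plau* (−0.64) and *Spp1* (−0.20) fell. Counts of *Timp1* were low, at 14.7 ± 3.51 in CTRL and 5.33 ± 2.08 in Act. The calls of *Tnf*, *Plau* and *Spp1* were lost when certain single libraries were left out. For *Tnf* the adjusted p was 0.063 to 0.075 without CTRL replicate 3 or Act replicate 1 or 3. For *Plau* it was 0.051 without Act replicate 3. For *Spp1* it was 0.084 to 0.12 without CTRL replicate 1 or 3 or Act replicate 2 or 3. In Act versus Act + FST 4 of these 12 genes passed, where 21.3% of all genes did. *Tnf* (limma adjusted p = 0.13), *Timp1* (0.069) and *Plau* (0.066) did not pass there. In Act + FST versus CTRL 0 of the 105 tested genes of these lists passed by limma, as of all genes (0.0%). At a limma unadjusted p under 0.05 there were 13 of the 105, and 655 of all 14318 genes. With the block 1 of the bZIP factors and 1 of the genes with AP-1 sites passed, where 0.559% of all genes did.

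**Figure D5:**
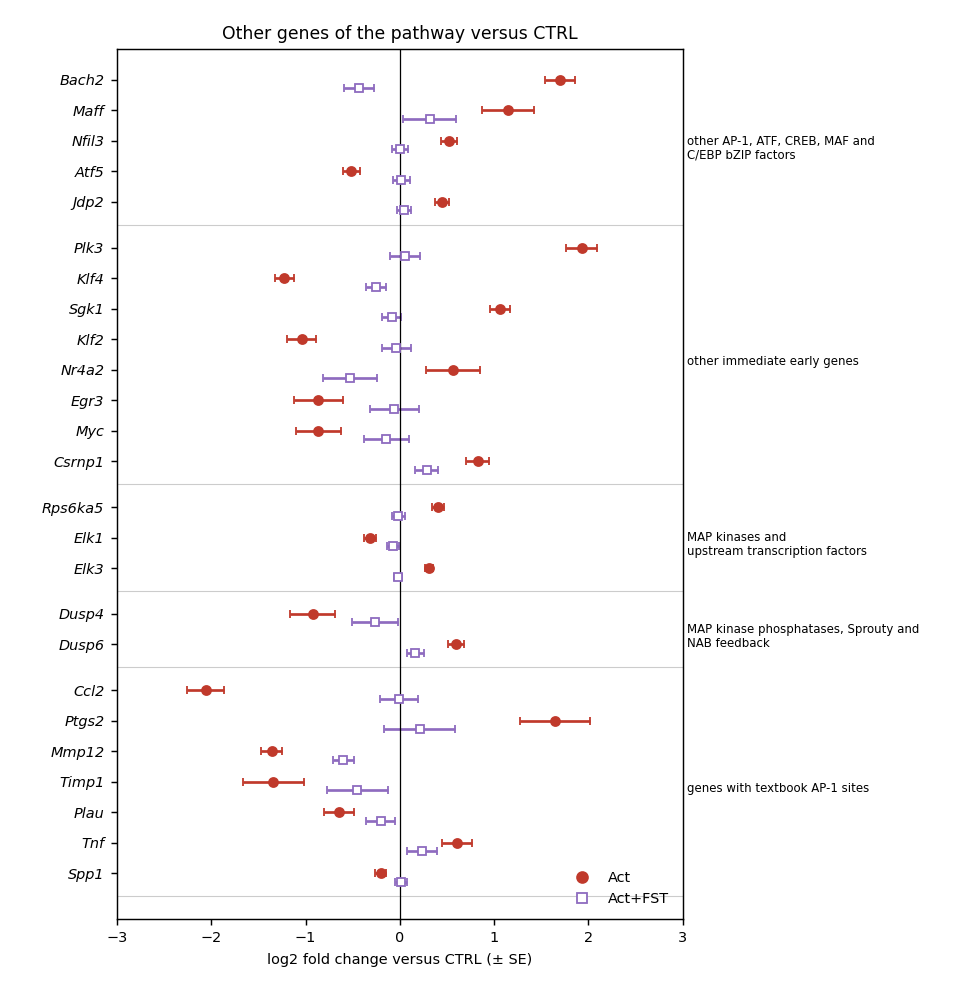
Log2 fold changes against CTRL of the named genes of the other lists, with bars of 1 SE, in Act (filled circles) and Act + FST (open squares). *Bach2* was at 1.70 and −0.43, *Plk3* at 1.93 and 0.06, and *Mmp12* at −1.36 and −0.60.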

How the data were processed

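Messenger RNA of 12 BMDM libraries in 4 groups of 3 was analysed. The authors used Trimmomatic 0.39 for trimming, STAR 2.7.9a for alignment to mm10 and featureCounts 2.0.2 for counting, without reads that fell on more than 1 gene or place. The authors' own DEGs came from DESeq2 1.30.0. The deposited values are a signal: whole numbers obtained from gene counts by a common factor for each library. The scaling formula and the strand setting are not given in the sources used here, and whole reads were not recovered, so depth is unknown and a test for normalized values took the place of one for counts.

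Groups were compared two-sided with limma 3.58.1 (R 4.3.3), with a variance trend, on log2(normalized count + 1) for genes with a mean of at least 5, in 1 model of 4 group means, and it was checked on simulated data. The replicate numbers come from the labels, which do not say whether they pair the libraries. The block and the pair counts take them as pairs. Deviations from group means correlated positively in each of 18 same-number pairs (0.157 to 0.481, mean 0.312). In 36 pairs of different numbers the correlations ran from −0.358 to 0.169. Their mean was −0.155, which the centring makes negative. The 10 genes and the lists were chosen with earlier results of these data known. From each other list, DEGs of Act versus CTRL or Act versus Act + FST (at most 6) and at most 3 further genes past the adjusted p were named, by size of change. Gene positions are those deposited, and exon lengths are from a GENCODE annotation of GRCm38 within these positions. Alternatives were pseudocounts of 0.5 and 5, no filter and a mean of at least 50, quantile and median-of-ratios scaling, the replicate number as a block, a model of the 6 libraries in question, and leaving out each library. The median-of-ratios factors of the libraries lay between 1.0017 and 1.0045, so that alternative hardly changed the values. A fit of the libraries numbered 2 and 3 was added after the data were seen. So was a correction for reads that start at the same base. The correction took normalized counts in place of read numbers, which are unknown. Its size may therefore be wrong, and it cannot settle how such reads affect the results. With that correction 5 of the 10 genes passed in Act versus CTRL (2899 of all genes). In Act versus Act + FST 5 passed as well (3053 of all genes). Further marker lists were summed per library: neutrophil genes gave 691 to 1276 normalized counts, lymphocyte genes 6 to 28 and mast cell and basophil genes 0 to 14, each with overlapping groups.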

Additional observations from a re-analysis of the deposited data

Results flagged for a closer look

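The effect of activin A differed with and without FST288, by the interaction term of limma, for *Fosl2* (1.00 on the log2 scale, that is the difference of Act from CTRL minus the difference of Act + FST from FST). Among the other genes named, the same test passed with a larger positive effect of activin A alone for *Bach2* (1.87), *Plk3* (1.72), *Sgk1* (0.97), *Dusp6* (0.50), *Jdp2* (0.48), *Nfil3* (0.47) and *Elk3* (0.29). It passed with a more negative effect for *Ccl2* (−2.05), *Klf4* (−0.97), *Klf2* (−0.90), *Mmp12* (−0.86) and *Atf5* (−0.49). Adjusted p-values of these 13 genes were at most 0.043. The mean normalized count of *Mmp12* was 418 ± 40.0 (SD, n = 3) in Act, 712 ± 109 in Act + FST, 1076 ± 142 in CTRL and 1002 ± 52.9 in FST, and no Act + FST library reached either the Act or the CTRL range. Groups of 3 libraries were not tested for a library far from the others.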

How the results depend on the processing

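A tally was made of the 10 genes in Act versus CTRL and Act versus Act + FST. It also held *Fosb*, *Fosl2*, *Fos*, *Egr2* and *Atf3* in Act + FST versus CTRL. From the interaction it took *Fos*, *Fosb*, *Fosl2*, *Jun*, *Junb* and *Ier3*, and other comparisons were left out. Of these 522 values under the alternatives, 476 kept their direction and their side of the threshold. The call was lost in 21 and gained in 15, and 10 changed sign. Median-of-ratios scaling, which hardly changed the values, is among these alternatives. Of 396 values of the other named genes, all in Act versus CTRL, 371 kept both and 25 lost the call. The replicate block moved the number of the 10 genes past the test from 5 to 8 in Act versus CTRL and in Act versus FST, from 0 to 1 in Act + FST versus CTRL, and from 1 to 5 in the interaction, and it changed no other call of the 10 genes. With only the 6 libraries compared, 3 passed in Act versus Act + FST. Leaving out each library gave 3 to 5 genes in Act versus CTRL and in Act versus Act + FST, 3 to 4 in Act versus FST (3 without Act replicate 3 or FST replicate 3), and 1 to 2 in the interaction. The log2 difference of *Atf3* between Act and Act + FST was −0.027 with quantile normalization, −0.0098 with the libraries numbered 2 and 3, and −0.031 to 0.053 without each library. Leaving out each library gave −0.23 to 0.030 for *Egr1* in Act versus CTRL, −0.19 to 0.31 for *Egr1* and −0.14 to 0.25 for *Egr2* in Act versus Act + FST. Over all genes, the block moved the number past the adjusted p from 2896 to 4508 in Act versus CTRL, from 3048 to 4663 in Act versus Act + FST, from 0 to 80 in Act + FST versus CTRL, from 0 to 31 in Act + FST versus FST, and from 965 to 2337 in the interaction. The interaction gave 626 without CTRL replicate 3 and 641 without FST replicate 1, and Act + FST versus CTRL gave 1 without Act + FST replicate 2. With a mean of at least 50, which tests fewer genes, DEGs went from 811 to 364 in Act versus CTRL and from 835 to 378 in Act versus Act + FST, and *Fosb* was not tested. The causes of the other changes were not tested. Depth is unknown, and counting error limits *Fosb* most.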
